A study of Mus musculus with 32 samples.

Results

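The genes described here are 6 mouse genes of the macrophage and monocyte line: the transcription factor genes Spi1 and Irf8, the receptor genes Csf1r and Cx3cr1, and the macrophage marker genes Adgre1 and Cd68. Their chromatin was read by ATAC-seq, in which the transposase Tn5 cuts and tags open DNA, so that the number of reads over a region measures how accessible it is. A region belonged to a gene when its midpoint lay inside the gene's mm10 span, or within 50 kb of it and nearer to it than to any other named gene. By this rule 40 of the 99037 regions of the developmental table fell to the 6 genes, with 17 at Irf8, 7 at Spi1, 6 at Csf1r, 5 at Cx3cr1, 4 at Adgre1 and 1 at Cd68. Of the 40 regions, 8 lay within 1 kb of an end of a gene span (called gene ends here), 13 inside a span and 19 between genes. The rule that assigns regions to genes uses position alone.

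The cells were LSK cells of C57BL/6 mice, a sorted fraction of blood stem and progenitor cells that the labels also call HSPC. There were 9 developmental groups, E12.5 PL (a source that the labels give only by these letters), E12.5 and E16.5 fetal liver (FL), and bone marrow (BM) of perinatal mice and of mice at 1w, 3w, 4w, 6w and 8w, with 3 libraries each and 2 at 3w, 26 in all. A further 6 libraries came from E12.5 FL cells cultured for 2 hours, either in the conditioned medium of hepatocytes taken at E16.5 (called co-SHI, 3 libraries) or in basic medium (called SHI, 3 libraries). One 8w library, replicate 3, has a title that says 8w and a stage label that says E12.5. It was placed by its title. In 8w BM over E12.5 FL the calls of Cx3cr1 (edgeR adjusted p = 0.00215) and Csf1r (0.0317) held without it, and other values without it are given where they change a call. The developmental libraries held 2845113 to 10167340 counts over all regions, the co-SHI libraries 14280440 to 20092146 and the SHI libraries 7512258 to 11655458. No label tells whether the replicate libraries stem from different animals or cultures, and a p-value here therefore reflects the spread among libraries, which may be technical. In the E12.5 PL libraries Ptprc, which encodes the blood cell surface protein CD45, averaged 43.5 CPM (counts scaled to a common library total), against 125 to 160 CPM as the means of the other 8 groups. Kit, the receptor in the sort name, averaged 156 CPM in E12.5 PL, against 84.3 to 111 CPM as the means of the other 8 groups. Ly6a, the gene of the Sca-1 antigen, averaged 4.70 CPM in E12.5 PL, against 1.53 to 3.70 CPM in the others.

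In background, PU.1, the protein made from Spi1, is an ETS-family factor needed for macrophages and other myeloid cells, and its dose helps to set myeloid against lymphoid fate. IRF8 acts with PU.1 in progenitors that become monocytes and dendritic cells. CSF1R is the receptor for the growth factors CSF1 and IL-34 on which most macrophages depend, and CX3CR1 is the receptor for the chemokine CX3CL1 and marks monocytes, microglia and macrophage progenitors. Adgre1 encodes F4/80, the classical surface marker of mouse macrophages, and Cd68 encodes a lysosomal glycoprotein of phagocytes. An accessible region in a stem or progenitor cell does not by itself show that the gene is transcribed there.

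No promoter entry was available for Spi1, Csf1r or Adgre1, although a region of Adgre1 covers the start of its span. For Irf8, Cx3cr1 and Cd68 an entry was available and a measured region covers the start site, and these regions did not move alike. The promoter sequences of these genes are shown. They run from 250 bases before the start site to 50 after it, are written 5′ to 3′ on the gene's strand, and come from RefSeq on build GRCm38.p6. Capitals mark matches on either strand to any of 5 motifs: the core letters bound by PU.1, written GAGGAA, the letters of RUNX factors, written TGTGGT, those of C/EBP factors, written TTNNGNAA, the interferon response motif bound by IRF factors, and the letters of GATA factors, written AGATAA.
Irf8, chr8:120736108-120736407, plus strand: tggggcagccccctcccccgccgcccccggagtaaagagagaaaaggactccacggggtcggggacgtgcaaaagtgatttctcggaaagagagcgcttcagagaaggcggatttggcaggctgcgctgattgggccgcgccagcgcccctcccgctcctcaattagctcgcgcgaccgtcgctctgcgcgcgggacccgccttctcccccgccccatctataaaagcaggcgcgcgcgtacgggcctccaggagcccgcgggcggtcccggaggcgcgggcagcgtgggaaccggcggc
Cx3cr1, chr9:120068247-120068546, minus strand: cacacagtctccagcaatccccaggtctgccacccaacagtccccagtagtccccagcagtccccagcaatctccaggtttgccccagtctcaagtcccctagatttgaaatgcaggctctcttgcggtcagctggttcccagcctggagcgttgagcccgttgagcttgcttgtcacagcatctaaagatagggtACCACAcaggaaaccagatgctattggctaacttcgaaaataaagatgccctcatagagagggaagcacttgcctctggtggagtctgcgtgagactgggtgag
Cd68, chr11:69666121-69666420, minus strand: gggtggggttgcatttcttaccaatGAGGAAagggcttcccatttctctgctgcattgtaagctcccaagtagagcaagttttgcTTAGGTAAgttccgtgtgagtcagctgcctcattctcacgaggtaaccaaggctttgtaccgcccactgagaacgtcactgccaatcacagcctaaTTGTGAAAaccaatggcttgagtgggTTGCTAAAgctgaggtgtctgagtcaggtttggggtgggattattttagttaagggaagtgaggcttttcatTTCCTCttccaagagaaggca

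The Irf8 window held none of the 5 motifs, had 70.0% G and C, and carried 38 CpG dinucleotides, against medians of 52.7% and 7 over 32851 promoter windows of the same length. The Cx3cr1 window held 1 match, to the RUNX letters at -54 on the other strand, with 54.3% G and C and 5 CpG. The Cd68 window held 5 matches, 2 to the PU.1 core and 3 to the C/EBP letters, none of them overlapping another, with 47.7% G and C and 4 CpG. Over all promoter windows the PU.1 core was present in 28.3%, the RUNX letters in 16.8%, the C/EBP letters in 40.7%, the interferon response motif in 3.44% and the GATA letters in 11.2%. A match is a string of letters and not a shown binding site.

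Across the 9 groups, all 6 genes had their lowest mean in E12.5 PL when scaled with factors of the table of genes. At Adgre1, Cx3cr1 and Spi1 every E12.5 PL library lay below every library of the other 8 groups. The share of all genes with such an order was not counted. With factors of the region table Irf8 was lower in E12.5 FL than in E12.5 PL (log2 fold change -0.17, not called). E12.5 FL cells had 4.76 times the E12.5 PL level at Adgre1, 2.71 times at Cx3cr1, 1.87 times at Spi1 and 1.83 times at Cd68, as ratios of mean CPM summed over a gene's regions. Cx3cr1 and Spi1 were higher again in perinatal marrow than in E16.5 liver, Csf1r and Cx3cr1 were higher in 8w marrow than in E12.5 liver, and Cd68 was higher in 8w than in 1w marrow. Each of these later calls was lost under alternative fits that are given with each gene below. Irf8 as a whole was called in none of the 7 comparisons, while single regions of it moved in both directions, as did those of Spi1 and Csf1r. Summed levels of genes were scaled with factors of the table of genes and levels of regions with factors of the table of regions. The same region can therefore have different CPM in the 2 accounts, by an amount that differs between groups. At Cd68, which has 1 region, E12.5 FL over E12.5 PL had a log2 fold change of 0.87 on the gene scale. On the region scale it was 0.57. The ratios above are on the gene scale.

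In counts, 4 of the 6 genes were higher in E12.5 FL than in E12.5 PL at an adjusted p under 0.05, in a comparison where 49.3% of 16902 tested genes were called and 26.8% were called higher. None of the 6 was called in E16.5 FL over E12.5 FL, where 0.0% of genes were called by edgeR and 0 by DESeq2, with 0 of the 6 genes and 1305 of all genes at an unadjusted p under 0.05. Perinatal BM over E16.5 FL gave 2 of 6 higher, against 16% of genes called, 9.22% higher and 6.82% lower. For 1w BM over perinatal BM the count was 0 by edgeR and 0 by DESeq2, with none of the 6 at an unadjusted p under 0.05 and 0.248% of genes called. In 8w BM over 1w BM it was 1 of 6, with 1.39% of genes called, and in 8w BM over E12.5 FL 2 of 6, with 29.7%. In co-SHI over SHI it was 1 of 6, with 7.02% of genes called and 4.99% higher. With counts of this size beside such backgrounds, the tally over the 6 genes is a description, and the values of each gene follow.

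The share of called genes that were higher depends on how libraries are scaled. It was 54.3% for the E12.5 FL over E12.5 PL contrast, 57.5% for perinatal BM over E16.5 FL, and with 8w BM over E12.5 FL it came to 50.7%. With scaling factors of the region table these shares were 27.3%, 86.3% and 74.4%, and the median log2 fold change of all genes shifted to -0.29, 0.14 and 0.14. With total counts alone the shares of the perinatal BM and 8w BM comparisons were 44.8% and 39.1%. In these bulk samples fewer cells with an open region and less signal per cell cannot be told apart.

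Markers of other cells also differed between E12.5 FL and E12.5 PL. Of 11 endothelial markers 0 were higher and 8 lower, and their summed level was 910.1 to 934 CPM in the FL libraries and 1093 to 1476 CPM in the PL libraries. Of 10 trophoblast markers 1 was higher and 4 lower (410.0 to 439.9 CPM in FL, 467 to 629 CPM in PL). Of 9 neutrophil markers tested of 12 listed 7 were higher (216 to 242 CPM in FL, 78.3 to 103 CPM in PL). Of 11 lymphoid markers of 13 listed 6 were higher (327 to 346 CPM in FL, 261 to 285 CPM in PL), and of 8 erythroid markers of 11 listed 4 were higher (276 to 345 CPM in FL, 183 to 209 CPM in PL). Of 9 hepatocyte markers of 11 listed 3 were higher and 2 lower, with overlapping sums. Of 10 genes that mark LSK progenitors 5 were higher and 2 lower. No list had a summed level of 0 in either group, and their part in the member values was not tested.

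In perinatal BM over E16.5 FL the same lists had at most 3 genes called in a direction, the most in trophoblast markers (0 higher, 3 lower of 10). In 8w BM over E12.5 FL trophoblast markers had 0 higher and 5 lower of 10, with group means of 318.5 CPM in 8w BM and 427 CPM in E12.5 FL. Endothelial markers there had 0 higher and 3 lower of 11, neutrophil markers 2 higher and 1 lower of 9, lymphoid markers 2 higher and 1 lower of 11, hepatocyte markers 2 higher and 2 lower of 9, LSK progenitor markers 0 higher and 1 lower of 10, and erythroid markers 0 called of 8. In co-SHI over SHI 2 of 10 erythroid markers tested were higher, and 1 of 13 lymphoid and 1 of 10 LSK progenitor markers lower. Their part in the member values was not tested here either.

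**Figure D1:**
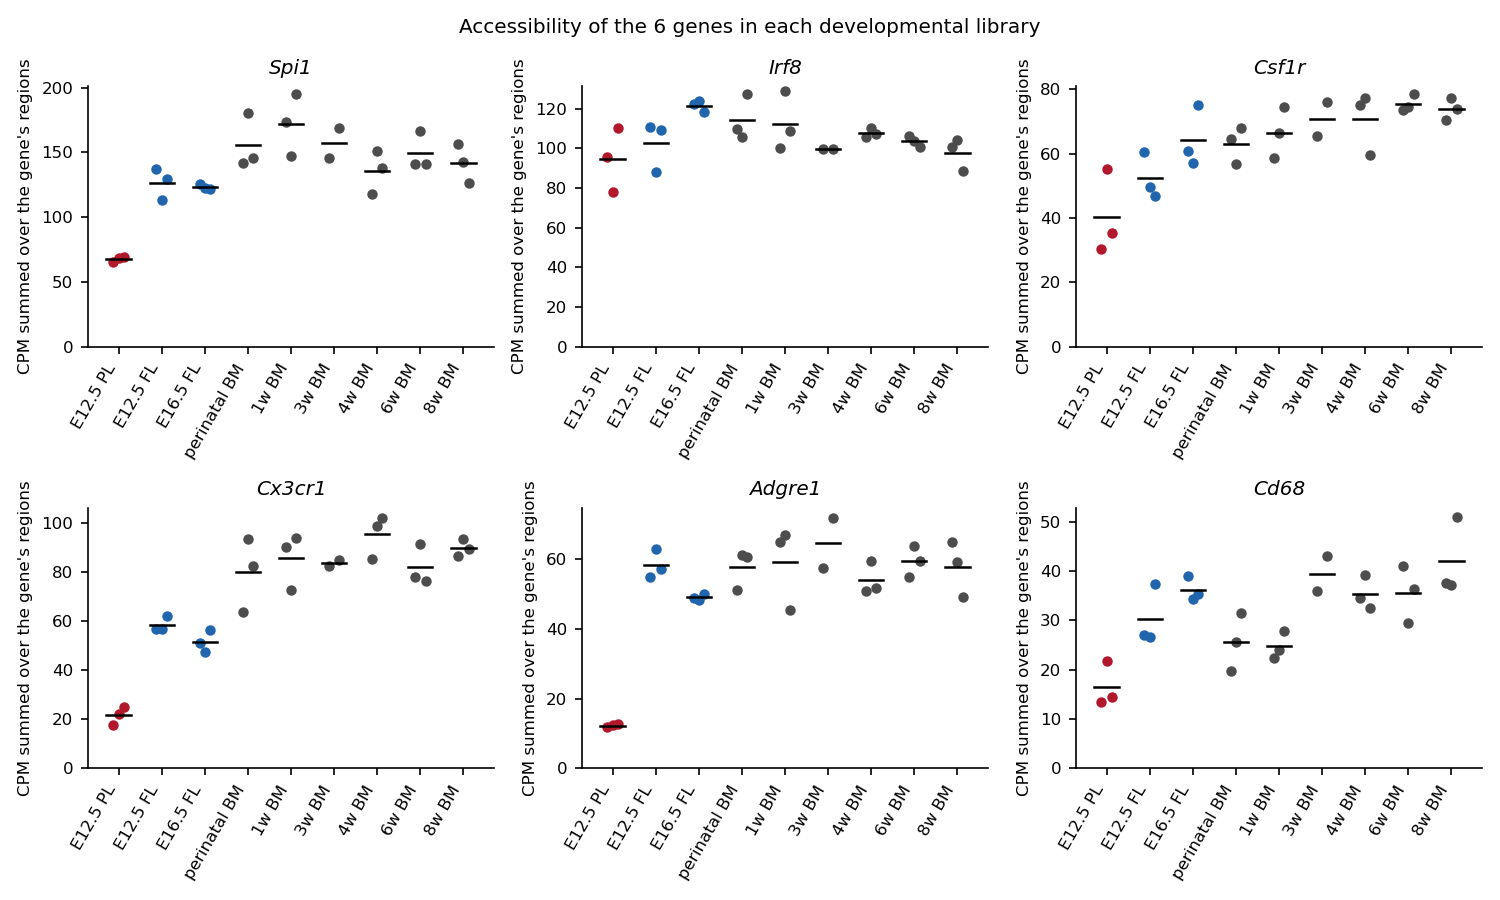
CPM summed over the regions of each of the 6 genes (vertical axis, starting at 0) in the 26 developmental libraries, grouped by the 9 groups in stage order; each point is a library and each bar a group mean. The 3 E12.5 PL libraries of Adgre1 sit between 11.8 and 12.6 CPM, under every other library of that gene, while at Irf8 the E12.5 PL libraries, at 77.9 to 110 CPM, lie among those of other groups.

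Spi1, on chromosome 2 from 91082374 to 91115759, had 137, 114 and 129 CPM in the 3 E12.5 FL libraries and 65.1, 68.7 and 69.5 CPM in the 3 E12.5 PL libraries. Every FL library stood above every PL library, and the log2 fold change was 0.90 with a standard error (SE) of 0.12 and an edgeR adjusted p of 1.22e-07. Perinatal BM libraries had 142, 180 and 146 CPM and E16.5 FL libraries 126, 123 and 122 CPM, again without overlap, with perinatal library 2 well above the other two. The log2 fold change there was 0.34 (SE 0.12, edgeR adjusted p = 0.0451). It missed the threshold with cyclic loess scaling (adjusted p = 0.327), with total counts (0.0793), with gene-end regions alone (0.379), without perinatal BM replicate 2 (0.243) and without any of E16.5 FL replicates 1, 2 and 3 (0.0888, 0.0634 and 0.065). From highest to lowest, the group means ran 1w BM (172 CPM), 3w BM, perinatal BM, 6w BM, 8w BM, 4w BM, E12.5 FL, E16.5 FL (123 CPM) and E12.5 PL (67.8 CPM). Each group overlapped the next lower one in its libraries, except that E16.5 FL lay wholly above E12.5 PL.

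Within Spi1, 3 of the 7 regions were higher and 2 lower in E12.5 FL than in E12.5 PL. Over the 6 genes together 16 of 40 regions were higher and 8 lower, where 23.1% of all regions were called higher and 26.3% lower. The strongest region, chr2:91082774-91083822, 924 bp inside the start of the span, had 39.9, 33.9 and 42.0 CPM in E12.5 FL, against 11.1, 7.88 and 11.8 CPM in E12.5 PL, a log2 fold change of 1.91 (SE 0.21, edgeR adjusted p = 1.1e-10). The FL libraries all stood well above the PL libraries at this region. A region 14331 bp inside the span, chr2:91096438-91096972, averaged 25.1 ± 2.74 CPM in E12.5 FL, against 8.52 ± 0.694 CPM in E12.5 PL (mean ± SD, 3 libraries each), with a log2 fold change of 1.56 (SE 0.23, edgeR adjusted p = 1.27e-07). The mouse gene is known for an upstream enhancer lying ahead of its main promoter, but the span used here begins at its first annotated base and does not tell promoters apart, so which of these regions is which was not tested. The far end of the gene moved the other way: chr2:91114995-91115563 averaged 6.76 ± 2.56 CPM in E12.5 FL, against 14.3 ± 1.05 CPM in E12.5 PL, a log2 fold change of -1.07 (SE 0.33, edgeR adjusted p = 0.00612), which was 0.0534 without E12.5 FL replicate 3.

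The Spi1 region at 14331 bp was higher in perinatal BM (38.9 ± 8.70 CPM) than in E16.5 FL (22.4 ± 2.72 CPM, SD, n = 3 each), with a log2 fold change of 0.80 (SE 0.20, edgeR adjusted p = 0.00592). These groups differ in organ as well as in stage. Over the 6 genes 4 regions were higher and 1 lower in that comparison, against 6.63% and 1.37% of all regions (7.99% in either direction). The weak region chr2:91086272-91086809 averaged 14.8 ± 0.901 CPM in 8w BM and 7.0 ± 2.21 CPM in E12.5 FL, with a log2 fold change of 1.08 (SE 0.33, edgeR adjusted p = 0.0153), lost with cyclic loess scaling (0.0546), with total counts (0.0534) and without 8w BM replicate 2 (0.0599) or E12.5 FL replicate 2 (0.119). It was among 8 regions of the 6 genes that were higher and 0 that were lower in 8w BM, against 10.6% and 5.77% of all regions. DESeq2 called only 4 of the 40 regions in that comparison. The region 3708 bp before the span, chr2:91078203-91079130, was picked out after its values were seen. It had 22.8, 25.9 and 13.7 CPM in 8w BM and 34.2, 34.9 and 41.0 CPM in 1w BM, without overlap, with a log2 fold change of -0.82 (SE 0.21, edgeR adjusted p = 0.0313), and its adjusted p was 0.0533 to 0.27 in 5 of the 6 fits that left out a library. Over the 6 genes that comparison called 1 region higher and 1 lower, against 0.641% and 0.638% of all regions.

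Irf8, on chromosome 8 from 120736358 to 120756694, had 111, 88.2 and 109 CPM in E12.5 FL, against 95.5, 77.9 and 110 CPM in E12.5 PL. The libraries overlapped, and the log2 fold change was 0.12 (SE 0.12, edgeR adjusted p = 0.406). The sign turned with factors of the region table (-0.17) and without E12.5 PL replicate 2 (-0.00085). Gene-end regions alone gave -0.49 (adjusted p = 0.028) and regions within 10 kb of the gene gave -0.37 (adjusted p = 0.0317), both called lower in FL. Group means of Irf8 ran from E16.5 FL (121.5 CPM) through perinatal BM, 1w BM, 4w BM, 6w BM, E12.5 FL, 3w BM and 8w BM to E12.5 PL (94.5 CPM), and every group overlapped the next lower one. A test over the 8 liver and marrow groups together did not call it (edgeR F test, adjusted p = 0.268). With cyclic loess scaling the same test did call it (0.0191).

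Its 17 regions split, with 3 higher, 4 lower and 10 not called in E12.5 FL against E12.5 PL. Over all regions 23.1% were called higher and 26.3% lower, so a split of this kind is not particular to Irf8. The region over the start site whose sequence is printed, chr8:120736011-120736958, had 21.3, 15.0 and 17.8 CPM in E12.5 FL, against 37.3, 34.7 and 31.2 CPM in E12.5 PL. It was lower in all 3 FL libraries, with a log2 fold change of -0.93 (SE 0.20, edgeR adjusted p = 0.000182). The region 15831 bp into the gene fell as well, to 4.35 ± 2.13 CPM in E12.5 FL against 10.3 ± 1.37 CPM in E12.5 PL, a log2 fold change of -1.23 (SE 0.33, edgeR adjusted p = 0.00207).

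The regions of Irf8 that were higher in E12.5 FL all lay beyond the far end of the gene. The one at 30459 bp from the start of the span, chr8:120766552-120767083, had 7.93, 7.26 and 8.15 CPM in E12.5 FL, against 2.41, 2.25 and 3.24 CPM in E12.5 PL, with a log2 fold change of 1.55 (SE 0.35, edgeR adjusted p = 0.000314). The one at 60115 bp averaged 8.16 ± 0.440 CPM in E12.5 FL, against 3.47 ± 0.504 CPM in E12.5 PL (log2 fold change 1.23, SE 0.35, edgeR adjusted p = 0.00321, or 0.127 with cyclic loess scaling). An enhancer far downstream of Irf8 is known in mouse myeloid progenitors. The region at 56539 bp, chr8:120792621-120793174, was singled out after its values were seen, and whether it is that enhancer was not tested. It had 4.76, 3.28 and 8.15 CPM in E12.5 FL, against 1.2, 2.03 and 2.78 CPM in E12.5 PL, with no overlap and a log2 fold change of 1.41 (SE 0.42, edgeR adjusted p = 0.00467, or 0.0994 with cyclic loess scaling and 0.0767 without E12.5 FL replicate 3). In 8w BM it had 11.8, 14.2 and 6.41 CPM, with 2 of the 3 libraries above every E12.5 FL library (log2 fold change 1.02, SE 0.33, edgeR adjusted p = 0.0253). That call was lost with DESeq2 (0.0573), cyclic loess (0.0592), total counts (0.0837) and in 4 of the fits that left out a library.

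A further Irf8 region, chr8:120763196-120763780, fell to 2.32, 2.20 and 3.30 CPM in perinatal BM, against 6.39, 6.26 and 6.36 CPM in E16.5 FL. The groups did not overlap and the log2 fold change was -1.28 (SE 0.42, edgeR adjusted p = 0.0452), but leaving out any library of the 2 groups put the adjusted p at 0.051 to 0.194.

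**Figure D2:**
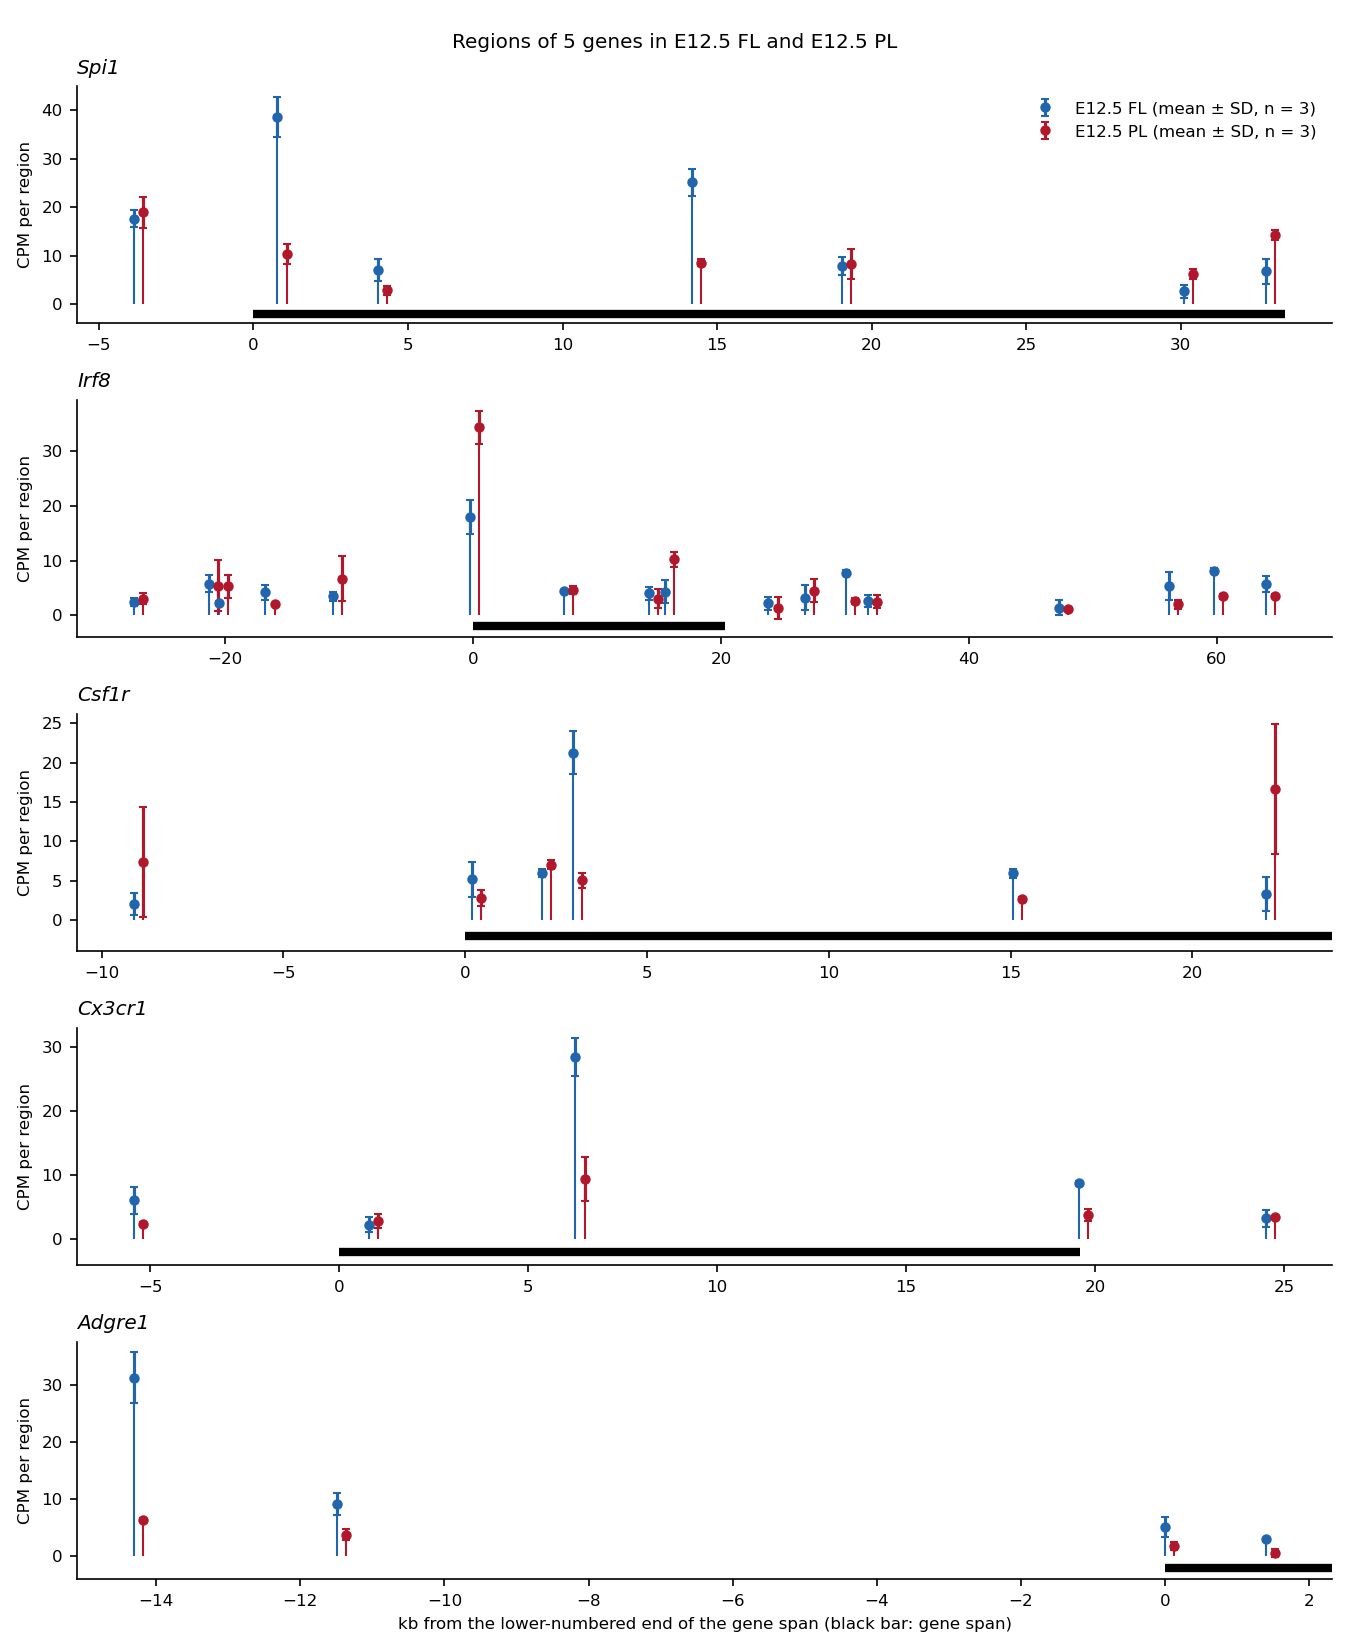
Mean CPM ± SD (n = 3 libraries) of each region of 5 genes in E12.5 FL (left point of each pair) and E12.5 PL (right point), against distance in kb from the lower-numbered end of the gene span, drawn as a black bar that is cut at the panel edge for Csf1r and Adgre1. At Irf8 the tallest pair, over the start site, is lower in FL (18.0 CPM) than in PL (34.4 CPM), while the tallest pairs of the other 4 genes are higher in FL.

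Csf1r, on chromosome 18 from 61105572 to 61131139, had 60.7, 49.7 and 47.0 CPM in E12.5 FL, against 30.4, 55.3 and 35.3 CPM in E12.5 PL. PL library 2 lay among the FL libraries, and the log2 fold change of 0.37 (SE 0.16) was not called (edgeR adjusted p = 0.0528). Without E12.5 PL replicate 2 it was 0.68 (adjusted p = 0.000886). It also passed with cyclic loess scaling (0.0222), total counts (0.0349), gene-end regions alone (0.0101), regions within 10 kb (0.045) and a replicate block (0.0431). In 8w BM the gene had 70.5, 77.4 and 74.1 CPM, all above the 3 E12.5 FL libraries, with a log2 fold change of 0.49 (SE 0.16, edgeR adjusted p = 0.0146). That call was lost with cyclic loess scaling (0.0557) and without 8w BM replicate 2 (0.0613) or E12.5 FL replicate 3 (0.0672), and with gene-end regions alone the value was -0.29 (adjusted p = 0.61). The order of means was 6w BM (75.6 CPM), 8w BM, 3w BM, 4w BM, 1w BM, E16.5 FL, perinatal BM, E12.5 FL (52.5 CPM) and E12.5 PL (40.4 CPM), and each group overlapped its next lower neighbour.

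The summed value of Csf1r joins regions that moved in opposite directions, 2 higher and 2 lower of 6 in E12.5 FL over E12.5 PL. Of all regions 23.1% were called higher and 26.3% lower there. The region 3101 bp inside the span, chr18:61108381-61108965, had 24.2, 20.8 and 18.8 CPM in E12.5 FL, against 4.09, 4.95 and 6.01 CPM in E12.5 PL. Each FL library was at least 3 times each PL library, with a log2 fold change of 2.08 (SE 0.24, edgeR adjusted p = 3.65e-10). It reached 39.9, 49.3 and 42.4 CPM in 8w BM, above all E12.5 FL libraries (log2 fold change 1.04, SE 0.19, edgeR adjusted p = 3.97e-05). Its group means were 5.02 CPM in E12.5 PL, 21.3 in E12.5 FL, 24.9 in E16.5 FL, 30.5 in perinatal BM, 39.4 in 1w BM, 41.1 in 3w BM, 40.4 in 4w BM, 47.4 in 6w BM and 43.9 in 8w BM. The mouse gene is known to carry a strong enhancer in its second intron, called FIRE, and whether this region is that element was not tested. In contrast chr18:61127469-61127969, 22147 bp inside the span, had 5.66, 2.81 and 1.48 CPM in E12.5 FL, against 12.8, 26.1 and 11.1 CPM in E12.5 PL, with no overlap and a log2 fold change of -2.31 (SE 0.47, edgeR adjusted p = 7.21e-05). A weak region 15184 bp inside the span averaged 5.95 ± 0.573 CPM in E12.5 FL, against 2.71 ± 0.197 CPM in E12.5 PL (log2 fold change 1.13, SE 0.35, edgeR adjusted p = 0.00684, or 0.2 with cyclic loess scaling).

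Cx3cr1, on chromosome 9 from 120048683 to 120068296, had 56.7, 57.0 and 62.2 CPM in E12.5 FL, against 17.7, 22.1 and 25.0 CPM in E12.5 PL. The groups were far apart, with a log2 fold change of 1.44 (SE 0.15, edgeR adjusted p = 3.97e-10). In perinatal BM it had 64.0, 93.6 and 82.5 CPM and in E16.5 FL 51.0, 47.5 and 56.3 CPM, again without overlap (log2 fold change 0.64, SE 0.14, edgeR adjusted p = 0.00241). In 8w BM it had 86.7, 93.4 and 89.4 CPM, above all 3 E12.5 FL libraries (log2 fold change 0.62, SE 0.13, edgeR adjusted p = 0.0006). Both later calls were lost with gene-end regions alone (0.21 and 0.208). The order was 4w BM (95.4 CPM), 8w BM, 1w BM, 3w BM, 6w BM and perinatal BM, which overlapped from neighbour to neighbour, and then E12.5 FL (58.6 CPM), E16.5 FL (51.6 CPM) and E12.5 PL (21.6 CPM), each clear of the next higher group. Over the 8 liver and marrow groups, where 42.0% of genes were called, Cx3cr1 had an edgeR F-test adjusted p of 7.53e-06. With gene-end regions alone it was 0.146.

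The Cx3cr1 region of highest mean CPM lies inside the gene, chr9:120054736-120055381, with 25.1, 29.0 and 30.9 CPM in E12.5 FL, against 5.53, 11.3 and 11.6 CPM in E12.5 PL. The log2 fold change was 1.58 (SE 0.22, edgeR adjusted p = 8.18e-08), without overlap. The same region was higher in perinatal BM (40.8 ± 10.3 CPM) than in E16.5 FL (20.3 ± 2.56 CPM, mean ± SD, 3 libraries each; log2 fold change 1.02, SE 0.20, edgeR adjusted p = 0.000639, or 0.0836 with cyclic loess scaling) and higher in 8w BM (57.2 ± 4.85 CPM) than in E12.5 FL (28.4 ± 2.93 CPM; log2 fold change 1.02, SE 0.19, edgeR adjusted p = 8.33e-05). The region over the start site printed above, chr9:120068078-120068699, had 8.38, 8.66 and 9.14 CPM in E12.5 FL, against 2.89, 4.73 and 3.70 CPM in E12.5 PL (log2 fold change 1.2, SE 0.31, edgeR adjusted p = 0.00126). It averaged 15.0 ± 1.63 CPM in 8w BM and 8.73 ± 0.384 CPM in E12.5 FL, a log2 fold change of 0.78 (SE 0.26, edgeR adjusted p = 0.0309) that was lost with DESeq2 (0.0512), with 3 other scalings (0.0579 to 0.142) and in 5 of the 6 fits without a library, that without 8w BM replicate 3 among them (0.0529). A region beyond the gene's lower-numbered end, chr9:120043076-120043696, averaged 6.07 ± 2.05 CPM in E12.5 FL, against 2.48 ± 0.206 CPM in E12.5 PL (log2 fold change 1.29, SE 0.38, edgeR adjusted p = 0.00469, or 0.13 with cyclic loess scaling and 0.0555 without E12.5 FL replicate 1).

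Adgre1, on chromosome 17 from 57358581 to 57483529, had 54.8, 63.0 and 57.2 CPM in E12.5 FL, against 11.8, 12.3 and 12.6 CPM in E12.5 PL. Its log2 fold change of 2.25 was the largest of the 6 genes in this comparison (SE 0.17, edgeR adjusted p = 7.55e-14). All 4 of its regions were called higher, in a comparison where 23.1% of all regions were. The one with most counts lies 14240 bp before the span, chr17:57343940-57344743, and had 29.0, 36.3 and 28.4 CPM in E12.5 FL, against 6.25, 6.75 and 6.25 CPM in E12.5 PL (log2 fold change 2.28, SE 0.23, edgeR adjusted p = 1.8e-11). The region at the start of the span averaged 5.08 ± 1.77 CPM in E12.5 FL, against 1.78 ± 0.664 CPM in E12.5 PL (log2 fold change 1.49, SE 0.42, edgeR adjusted p = 0.00274, or 0.0757 with cyclic loess scaling).

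From E12.5 FL onward the group means of Adgre1 lay between 49.0 and 64.6 CPM. They ran 3w BM (64.6 CPM), 6w BM, 1w BM, E12.5 FL, 8w BM, perinatal BM and 4w BM (54.0 CPM), which overlapped from neighbour to neighbour, then E16.5 FL (49.0 CPM, clear of 4w BM) and E12.5 PL (12.3 CPM). The F test over the 8 liver and marrow groups did not call it (edgeR adjusted p = 0.492), but did with factors of the region table (0.0422). One of its regions, chr17:57346870-57347434, 11429 bp before the span, was higher in E12.5 FL (9.18 ± 1.91 CPM) than in E12.5 PL (3.77 ± 0.921 CPM), with a log2 fold change of 1.27 (SE 0.32, edgeR adjusted p = 0.000907). It had 13.1, 18.9 and 15.7 CPM in perinatal BM and 5.90, 8.26 and 8.56 CPM in E16.5 FL, without overlap (log2 fold change 1.08, SE 0.28, edgeR adjusted p = 0.00906). That second call was lost with cyclic loess scaling (0.0886), without E16.5 FL replicate 1 (0.0956) and without perinatal BM replicate 2 (0.0909).

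Cd68, on chromosome 11 from 69664213 to 69666170, has a single region, chr11:69665919-69666539, which covers the printed start site. On the gene scale it had 27.1, 26.6 and 37.3 CPM in E12.5 FL, against 13.4, 21.7 and 14.5 CPM in E12.5 PL, without overlap (log2 fold change 0.87, SE 0.20, edgeR adjusted p = 0.000499). On the region scale the libraries overlapped, the log2 fold change was 0.57 (SE 0.21, edgeR adjusted p = 0.0242), and the call was lost with DESeq2 (0.35, adjusted p = 0.173), with its size factors (0.171), with the compared groups alone (0.0523) and without E12.5 FL replicate 3 (0.18) or E12.5 PL replicate 1 (0.101) or 3 (0.0895). In perinatal BM Cd68 had 19.7, 25.7 and 31.5 CPM, against 39.0, 34.3 and 35.4 CPM in E16.5 FL. The perinatal libraries all lay below the liver libraries, but the log2 fold change of -0.49 (SE 0.20) was not called (edgeR adjusted p = 0.0759). It passed, as lower, with gene-end regions alone (-0.55, adjusted p = 0.0448) and without perinatal BM replicate 3 (-0.63, 0.0391). The gene-end fit holds the same single region of Cd68, so it differs in scaling and in the genes fitted beside it. On the region scale the log2 fold change of perinatal BM over E16.5 FL was -0.33 and was not called. In 8w BM Cd68 had 37.7, 37.2 and 51.0 CPM, against 22.4, 24.0 and 27.8 CPM in 1w BM, with a log2 fold change of 0.74 (SE 0.19, edgeR adjusted p = 0.0278). That adjusted p was 0.126 without 1w BM replicate 1, 0.0729 without 1w BM replicate 2, 0.059 without 8w BM replicate 1 and 0.206 without 8w BM replicate 3, the highest library and the one with the E12.5 stage label. On the region scale Cd68 was higher in 8w BM than in 1w BM (log2 fold change 0.73, edgeR adjusted p = 0.0445) and than in E12.5 FL (0.62, 0.0228). Without 8w BM replicate 3 these adjusted p-values were 0.253 and 0.132. The first was also lost without any other library of the 2 groups (0.0575 to 0.164), and the second with cyclic loess (0.38), DESeq2 size factors (0.0528), total counts (0.116) and without E12.5 FL replicate 1 (0.0974) or 2 (0.115). The order was 8w BM (42.0 CPM), 3w BM, E16.5 FL, 6w BM, 4w BM, E12.5 FL, perinatal BM, 1w BM (24.7 CPM) and E12.5 PL (16.6 CPM), and only 1w BM and E12.5 PL among neighbours did not overlap. Perinatal BM library 1, at 19.7 CPM, lay below E12.5 PL library 2, at 21.7 CPM. Over the 8 liver and marrow groups Cd68 and Spi1 were both called (edgeR F test, adjusted p = 0.00721 and 0.00898). The call of Spi1 was lost with cyclic loess scaling (0.133) and with gene-end regions alone (0.436).

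Among 1w to 8w marrow alone none of the 6 genes was called by the edgeR F test, against 1.17% of genes called. Of the 6, 2 were under 0.05 before adjustment, Cd68 and Spi1 (edgeR adjusted p = 0.146 and 0.397), and DESeq2 called 1 of the 6, Cd68. The fetal step from E12.5 to E16.5 liver called 0 of the 40 regions by edgeR and 0 by DESeq2, which gave no adjusted p for 28 of the 40, with 5 at an unadjusted p under 0.05 and 0.00101% of all regions called. The step from perinatal to 1w marrow likewise called 0 of 40 by edgeR and 0 by DESeq2, with 5 at an unadjusted p under 0.05 and 0.182% of all regions called, 0.0323% higher.

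**Figure D3:**
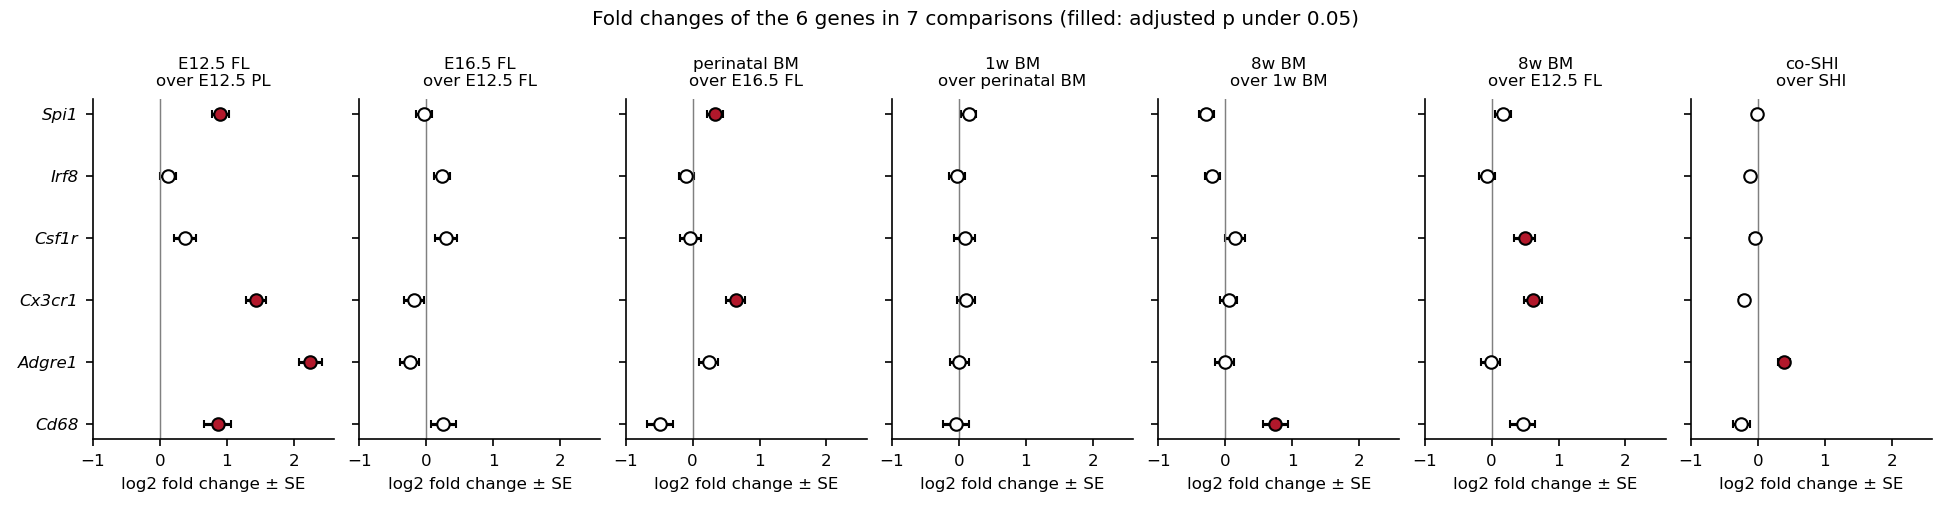
Log2 fold change ± SE (horizontal axis) of the 6 genes in each of the 7 comparisons, the group named first over the other; filled points have an adjusted p under 0.05 in edgeR. The largest value, 2.25, belongs to Adgre1 in the E12.5 FL over E12.5 PL contrast, while no point is filled in E16.5 FL over E12.5 FL or in 1w BM over perinatal BM.

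**Figure D4:**
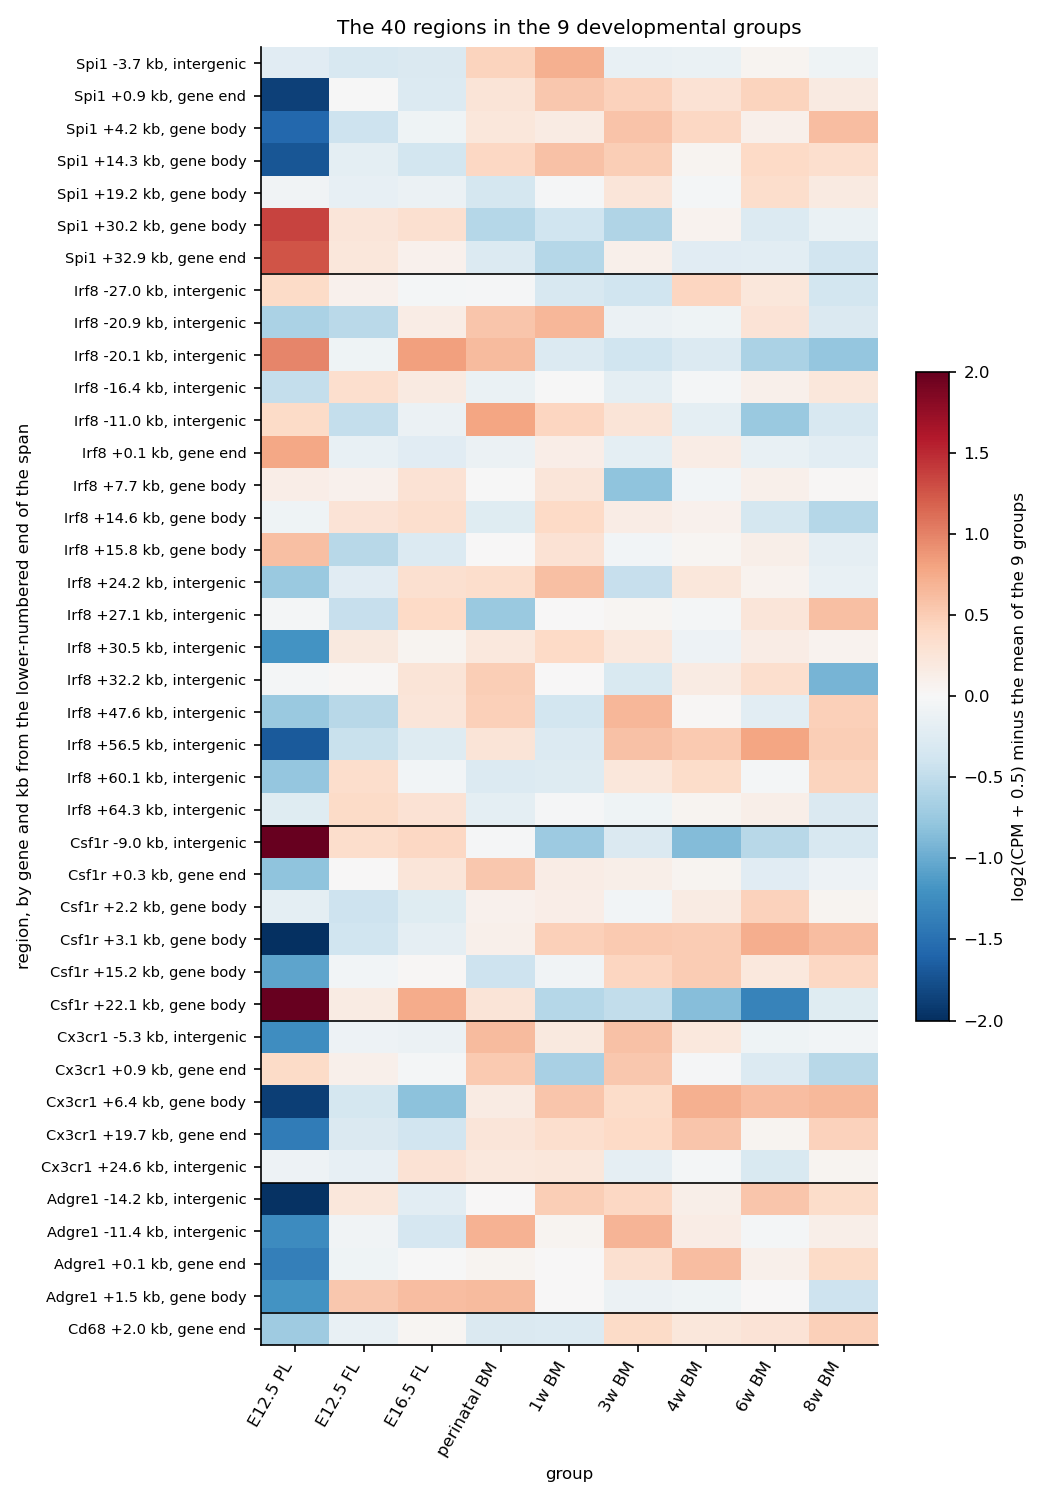
Log2(CPM + 0.5) of the 40 regions minus the mean of the 9 group means, by region (vertical axis, by gene and kb from the lower-numbered end of its span) and by group in stage order; the colour scale stops at 2 in both directions. Most strong colours are in the E12.5 PL column, blue at all 4 regions of Adgre1 and red at the start region of Irf8.

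Regions at gene ends were then set against those away from them, as the log2 ratio of the summed CPM of distal over gene-end regions, for the 5 members with both kinds. At Irf8 the distal sum was 67.6 ± 9.72 CPM in E12.5 FL, against 61.9 ± 15.1 CPM in E12.5 PL, while the gene-end value was 18.0 ± 3.16 CPM in E12.5 FL, against 34.4 ± 3.04 CPM in E12.5 PL (mean ± SD, 3 libraries each). The log2 ratio was thus higher in E12.5 FL by 1.07 (SE 0.22, limma adjusted p = 0.000395), in a comparison that called 49.1% of 10241 genes, 38.7% higher and 10.4% lower. The median difference over all these genes was 0.46. At Cx3cr1 the ratio was higher by 0.60 (SE 0.23, limma adjusted p = 0.0311), whose adjusted p was 0.0532 to 0.134 in 4 of the 6 fits without a library. Adgre1 gave 0.69 (limma adjusted p = 0.0853), Spi1 -0.46 (0.0556) and Csf1r -0.73 (0.167), none of them called. The gene-end class of Spi1 joins a region near the start of its span and one near its far end. These moved in opposite directions (log2 fold change 1.91 and -1.07). The gene-end class of Cx3cr1 also joins a region over its start site and one 903 bp inside the other end of its span. The span does not tell promoters apart, so a gene-end region of Spi1 need not lie at its main promoter. Adgre1 was called with a pseudocount of 2 CPM in place of 0.5 (0.94, limma adjusted p = 0.00411) and without E12.5 FL replicate 3 (0.95, 0.0329). Spi1 was called, as lower, without E12.5 PL replicate 1 (-0.57, 0.0349) or 3 (-0.56, 0.0391). No member's ratio was called by limma in the other 5 developmental comparisons, where 1 ratio, that of Spi1 in 8w BM over E12.5 FL, was under 0.05 before adjustment (0.40, limma adjusted p = 0.159).

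**Figure D5:**
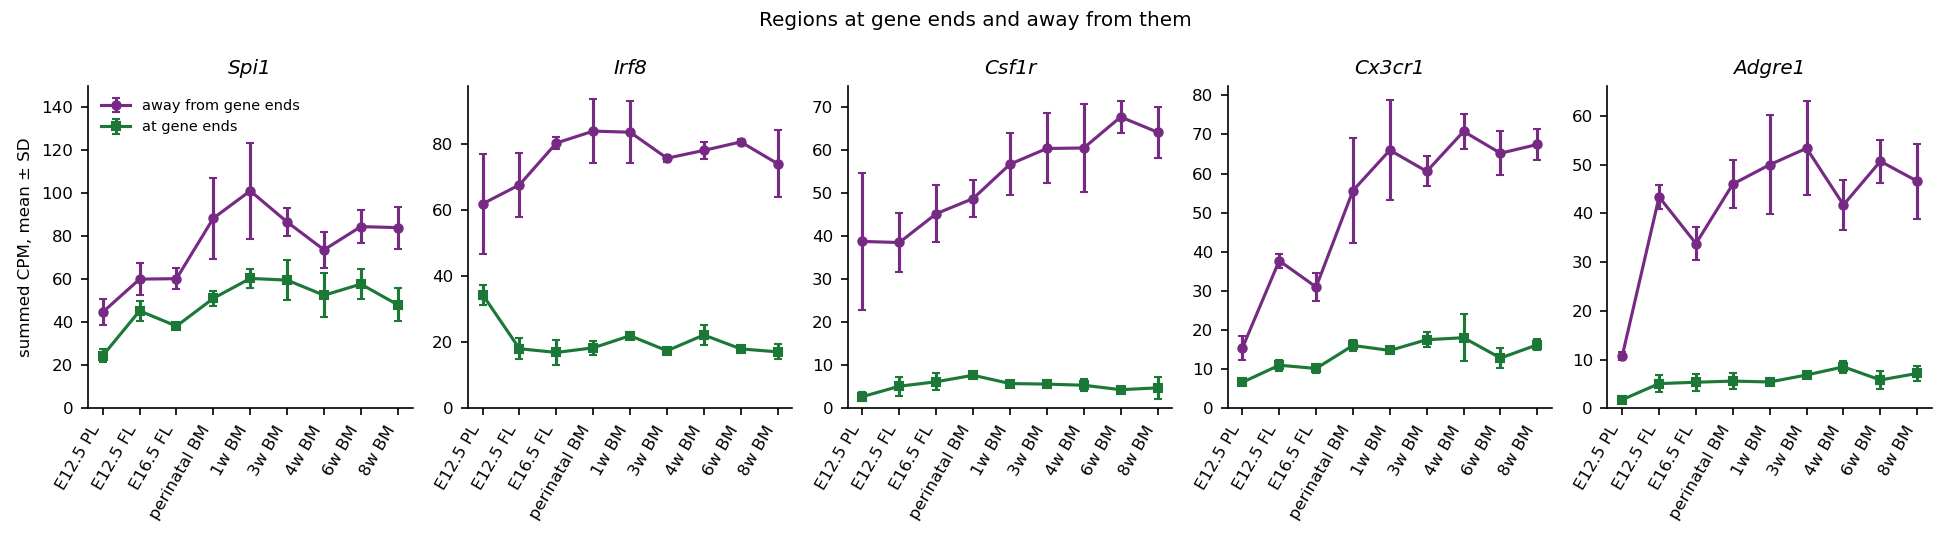
Summed CPM (vertical axis, mean ± SD of the libraries of each group) of regions away from gene ends (circles) and at gene ends (squares) for 5 genes over the 9 groups in stage order. At Irf8 the gene-end value falls to 18.0 CPM in E12.5 FL, against 34.4 CPM in E12.5 PL, while the distal sums of those groups are 67.6 and 61.9 CPM.

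The peak lists, called by the authors in each library separately, gave a second view of the same 40 regions. A peak overlapped the region in 351 of 1040 pairs of region and library, 8 regions had no peak in any library and 0 had one in all 26. The number of regions with a peak in at least 1 library of the group was 11 in E12.5 PL, 9 in E12.5 FL, 7 in E16.5 FL, 19 in perinatal BM, 25 in 1w BM, 23 in 3w BM, 22 in 4w BM, 20 in 6w BM and 24 in 8w BM. The share of all regions with a peak was not counted for any group, so these numbers are not read as a result about the 6 genes. The 3w BM group also has fewer libraries than the others. Peak numbers depend on depth and on the caller's threshold, and requiring a peak to cover 50% of a region left 184 pairs.

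None of the 4 Adgre1 regions had a peak in any E12.5 PL library, and the region before the span had one in all 3 E12.5 FL libraries and in 22 libraries in all. The Csf1r region at 3101 bp had a peak in 23 libraries, which are all but the 3 of E12.5 PL. The Csf1r region at 22147 bp had a peak in those 3 PL libraries and in no other. The Spi1 region at 924 bp had peaks in 22 libraries and none in E12.5 PL. The downstream Irf8 region at 56539 bp had a peak in 14 marrow libraries and in none of the 9 libraries of E12.5 PL, E12.5 FL and E16.5 FL, although its CPM was already higher in E12.5 FL than in E12.5 PL. The Irf8 start region had a peak in 25 libraries, and the Cd68 region in 20.

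In the cultured cells the table of regions is another one, with 49 of 147852 regions at the 6 genes. Adgre1 had 87.5, 90.0 and 90.1 CPM in co-SHI and 80.2, 56.1 and 68.4 CPM in SHI. The co-SHI libraries all stood above the SHI libraries, which were more spread, and the log2 fold change was 0.39 (SE 0.09, edgeR adjusted p = 0.0206). It was lost in 4 of the 6 fits without a library (adjusted p 0.0522 to 0.106), with regions within 10 kb alone (0.162) and with gene ends alone (0.728). The co-SHI libraries were also the deeper ones, at least 14280440 counts against at most 11655458 in SHI, and what depth contributes was not tested.

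The other 5 genes were not called after culture, though without co-SHI replicate 3 both Cx3cr1 (-0.23, edgeR adjusted p = 0.0331) and Cd68 (-0.37, 0.0276) were called lower. Cx3cr1 had 73.1, 73.4 and 75.8 CPM in co-SHI and 86.2, 82.2 and 90.2 CPM in SHI, without overlap, with a log2 fold change of -0.21 (SE 0.07, edgeR adjusted p = 0.0707). Irf8 had 127, 131 and 137 CPM in co-SHI and 149.8, 138 and 142 CPM in SHI, also without overlap (log2 fold change -0.11, SE 0.06, edgeR adjusted p = 0.275). Spi1, Csf1r and Cd68 overlapped between the media, with log2 fold changes of -0.01, -0.05 and -0.25 (edgeR adjusted p = 0.915, 0.732 and 0.227). None of the 49 regions was called by edgeR or by DESeq2, which gave no adjusted p for 20 of them, with 8 at an unadjusted p under 0.05 and 0.561% of all regions called. The one nearest to the threshold was the Adgre1 region at chr17:57346870-57347396, with 21.7, 23.2 and 26.1 CPM in co-SHI and 18.8, 12.7 and 16.8 CPM in SHI (log2 fold change 0.54, SE 0.14, edgeR adjusted p = 0.072).

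Other genes of the same biology were read from 4 lists that together hold 73 genes and none of the 6 members. Of the 73, 39 were higher and 11 lower in E12.5 FL than in E12.5 PL, where 26.8% of all genes were called higher and 22.6% lower. For perinatal BM over E16.5 FL the same counts were 4 and 6, against 9.22% and 6.82% of all genes. They were 1 and 0 in 1w BM over perinatal BM (0.0177% and 0.231%) and 2 and 2 in 8w BM over 1w BM (0.805% and 0.586%). They came to 15 and 8 in 8w BM over E12.5 FL (15.1% and 14.6%) and 1 and 2 in co-SHI over SHI (4.99% and 2.03%). None was called in E16.5 FL over E12.5 FL by edgeR or DESeq2, with 7 at an unadjusted p under 0.05.

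Of the 14 genes of growth factor and chemokine axes, 9 were higher and 3 lower in E12.5 FL than in E12.5 PL, with a median log2 fold change of 0.57 against 0.00 over all genes. Flt3, a receptor tyrosine kinase of early progenitors, averaged 187 ± 9.25 CPM in E12.5 FL, against 51.4 ± 4.95 CPM in E12.5 PL (mean ± SD, 3 libraries each), a log2 fold change of 1.86 (SE 0.12, edgeR adjusted p = 1.21e-15). Tyrobp, the adaptor also known as DAP12, had a log2 fold change of 1.28 (SE 0.17, edgeR adjusted p = 5.37e-08). Csf3r, the receptor for the granulocyte growth factor, had 1.54 (SE 0.23, edgeR adjusted p = 6.3e-07).

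The 3 genes of this list that were lower in E12.5 FL encode the ligands of the member receptors, and they are named here after their values were seen. Csf1 averaged 67.7 ± 3.25 CPM in E12.5 FL, against 126 ± 23.8 CPM in E12.5 PL (log2 fold change -0.89, SE 0.15, edgeR adjusted p = 6.49e-06). Il34 averaged 0.657 ± 0.129 CPM in E12.5 FL, which is only a few counts per library, and 10.6 ± 6.26 CPM in E12.5 PL (edgeR adjusted p = 5.24e-06). Cx3cl1 averaged 50.8 ± 2.25 CPM in E12.5 FL, against 69.2 ± 6.80 CPM in E12.5 PL (log2 fold change -0.45, SE 0.13, edgeR adjusted p = 0.00433).

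The 20 myeloid transcription factor genes split into 7 higher and 4 lower, with a median of 0.17. Gfi1, a repressor of monocytic genes, had a log2 fold change of 1.39 (SE 0.14, edgeR adjusted p = 1.1e-10), and Runx1, needed for the emergence of blood stem cells, 1.07 (SE 0.11, edgeR adjusted p = 2.37e-10). Klf4, a factor of monocyte differentiation that endothelium also uses, was lower, with 90.7 ± 8.93 CPM in E12.5 FL, against 218 ± 28.5 CPM in E12.5 PL (log2 fold change -1.26, SE 0.10, edgeR adjusted p = 1.16e-12).

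Phagocyte surface and effector genes gave 17 higher and 3 lower of 28, with a median of 0.84. Vsig4, a complement receptor of tissue macrophages, had a log2 fold change of 2.17 (SE 0.18, edgeR adjusted p = 1.1e-12), Marco, a scavenger receptor, 1.84 (SE 0.17, edgeR adjusted p = 1.41e-11) and Itgam, the gene of CD11b, 1.80 (SE 0.13, edgeR adjusted p = 5.66e-14). Among 14 dendritic cell genes, 7 were higher and 2 lower, with a median of 0.49. Besides Flt3, which is in both lists, these included Siglech, a marker of plasmacytoid dendritic cells (2.05, SE 0.20, edgeR adjusted p = 4.19e-11), and Ciita, the master regulator of MHC class II genes (1.06, SE 0.16, edgeR adjusted p = 1.09e-06).

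In perinatal BM over E16.5 FL, where 9.22% of all genes were called higher and 6.82% lower, the phagocyte list had 0 higher, 5 lower and 23 not called of 28, with a median log2 fold change of -0.12 against -0.03 over all genes. Its summed level averaged 1060 CPM in E12.5 PL, 1784 in E12.5 FL, 2003 in E16.5 FL, 1283 in perinatal BM, 1060 in 1w BM, 1119 in 3w BM, 1164 in 4w BM, 1041 in 6w BM and 1128 in 8w BM. Ly6c2, which encodes the Ly6C antigen of inflammatory monocytes, took a large share of that sum, with 348 ± 120 CPM in perinatal BM and 990 ± 151 CPM in E16.5 FL (log2 fold change -1.51, SE 0.26, edgeR adjusted p = 0.000346). Aif1, the gene of the macrophage protein IBA1, had -0.83 (SE 0.23, edgeR adjusted p = 0.0139), and C1qa, a complement subunit with few counts, -1.56 (SE 0.54, edgeR adjusted p = 0.0436). In the transcription factor list 3 of 20 were higher and 0 lower: Nr4a1, needed for patrolling monocytes (0.67, SE 0.12, edgeR adjusted p = 0.000349), Egr2 (0.43, SE 0.11, edgeR adjusted p = 0.0094) and Zfp36l2 (0.37, SE 0.10, edgeR adjusted p = 0.0124). The receptor list had 1 higher, Flt3 (0.49, SE 0.11, edgeR adjusted p = 0.0028), which is also the 1 dendritic gene called, and 1 lower, Csf2ra, a receptor chain for GM-CSF (-0.46, SE 0.10, edgeR adjusted p = 0.00304).

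Within marrow few listed genes moved. Nr4a1 was higher in 1w BM (341 ± 37.8 CPM) than in perinatal BM (236 ± 30.5 CPM; log2 fold change 0.53, SE 0.11, edgeR adjusted p = 0.0209). In 8w BM over 1w BM the chemokine gene Ccl2 (0.68) and Siglech (0.65) were higher and Gfi1 (-0.52) and the factor gene Maf (-0.52) lower, with edgeR adjusted p of 0.047, 0.033, 0.018 and 0.0304.

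In 8w BM over E12.5 FL, where 15.1% of all genes were called higher and 14.6% lower, the transcription factor list gave 8 higher and 0 lower of 20 (median 0.14 against -0.03 over all genes), led by Nr4a1 (292 ± 19.9 CPM in 8w BM, 145 ± 12.3 CPM in E12.5 FL; log2 fold change 1.01, SE 0.12, edgeR adjusted p = 2.79e-08), Egr1 (0.99, edgeR adjusted p = 3.69e-07) and Irf1 (0.60, edgeR adjusted p = 6.3e-05). The phagocyte list gave 2 higher and 5 lower of 28 (median -0.15), with Ly6c2 at -1.66 (SE 0.27, edgeR adjusted p = 1.08e-05), the Fc receptor gene Fcgr3 at -0.84 (SE 0.12, edgeR adjusted p = 2.94e-06) and the receptor kinase gene Axl at 0.52 (SE 0.14, edgeR adjusted p = 0.00344). The receptor list gave 3 higher and 2 lower of 14 (median 0.12), among them Csf2rb2 (0.79), Csf2ra (-0.39) and Flt3l (-0.46), with edgeR adjusted p of 0.00179, 0.00377 and 0.0316. The dendritic list gave 4 higher and 1 lower of 14 (median 0.08), among them Siglech (0.51), Batf3 (0.34) and Xcr1 (-0.80), with edgeR adjusted p of 0.019, 0.025 and 0.0391. After culture Vsig4 was higher in co-SHI (65.6 ± 6.02 CPM) than in SHI (49.4 ± 3.43 CPM; log2 fold change 0.42, SE 0.09, edgeR adjusted p = 0.0122), and the factor gene Cebpb (-0.23) and the antiviral gene Bst2 (-0.39) were lower (edgeR adjusted p = 0.04 and 0.043).

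Across the 26 developmental libraries the log2 CPM of Spi1, Cx3cr1 and Adgre1 ran together, with Pearson correlations of 0.92 for Spi1 and Cx3cr1, 0.90 for Spi1 and Adgre1 and 0.89 for Cx3cr1 and Adgre1. Over the 23 libraries other than E12.5 PL these were 0.62, 0.36 and 0.30, so the pooled values rest largely on the low PL libraries. Irf8 correlated with the other members at 0.09 to 0.35 over 26 libraries and at -0.36 to -0.03 over 23. The points share library, depth and scaling, and the correlations are given as a description.

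Of 15821 named genes with at least 5 CPM, those with a level most like a member over the 26 libraries were as follows, with the value over 23 libraries in brackets. For Spi1 they were Il21r 0.95 (0.79), Mfsd6 0.95 (0.76) and Pik3ap1 0.95 (0.76). For Cx3cr1 they were Galnt6 0.97 (0.90), Adgrg1 0.97 (0.93) and Runx3 0.97 (0.85). For Adgre1 they were Bcl11a 0.98 (0.61), Arhgap15 0.98 (0.66) and Plcg2 0.98 (0.59). The best for Csf1r were Asgr2 0.91 (0.85), Colq 0.88 (0.61) and Ggt1 0.88 (0.61), and for Cd68 Otos 0.87 (0.73), Matn4 0.85 (0.71) and Mapkapk2 0.85 (0.68). Irf8 had the lowest likeness, with Exoc6 0.80 (0.70), Lincred1 0.80 (0.80) and Wipf1 0.77 (0.69). The Cx3cr1 set kept high values without E12.5 PL, while the Adgre1 set did not.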

How the data were processed

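The labels' protocols describe transposition with Tn5 and 10 cycles of PCR, and mm10, HOMER, DiffBind, MACS2, deepTools and Trim Galore are listed per the submitters' processing notes; the aligner is not given in the sources used here. The 2 deposited tables hold raw counts per region, with region widths of 501 to 2971 bp in the developmental table and 501 to 3152 bp in the cultured one. The authors' peak lists, 1 per library, give a score, a fold ratio and −log10 p and q values per peak, as deposited, and were used only for the presence of a peak.

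Regions were assigned to 20424 named RefSeq genes with a window of 50000 bp, and counts were summed per gene. Counts were tested with edgeR 4.0.16 (TMM scaling, quasi-likelihood test, minimum count 10, Benjamini-Hochberg adjustment over all genes or regions, threshold 0.05) on all 26 developmental or 6 cultured libraries, without covariates. The ratio of distal to gene-end CPM was tested with limma 3.58.1 (pseudocount 0.5 CPM, mean of at least 1 CPM). DESeq2 1.42.0, R 4.3.3 and Python 3.11.15 with matplotlib 3.10.9 were also used. Alternatives were other scalings, no filter, other fits, other region sets, a replicate block and leaving out each library. Values in brackets beside a call are adjusted p-values under such an alternative.

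The members and gene lists were chosen with earlier results of these data known. Named regions are each gene's strongest region, its strongest gene-end region, and at most 3 per comparison with an adjusted p under 0.05, a log2 fold change of at least 1 in size and no overlap. At most 3 called genes per list and comparison are named, by smallest p, and the 3 genes most like each member. Libraries of 1 group differed by a chi-square of 2.09 to 5.21 per region, so none was a repeat deposit. Replicate numbers were not shown to pair libraries (correlations of deviations -0.033 to 0.146, with a pair under 0.1 in every comparison). The highest value was that of replicate 3 in 1w BM over perinatal BM, where the other pairs averaged -0.023. Pairing of some libraries is therefore not excluded. The tests were first tested on simulated data. Another 3 columns of E12.5 FL, in the cultured table, were not used. Depth limits weak regions, where a few counts per library stand behind a value.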

Additional observations from a re-analysis of the deposited data

How the results depend on the processing

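The calls of Spi1, Cx3cr1, Adgre1 and Cd68 in E12.5 FL over E12.5 PL held under every alternative run on counts summed per gene; the single region of Cd68, tested in the table of regions, lost it under 6 of them. Of the alternative values of log2 differences, 1154 kept direction and side of the threshold, 94 lost and 21 gained a call, and 68 changed sign; the causes were not tested. Regions of under about 5 CPM rest on few counts, gene-end values of Adgre1 and Csf1r among them.

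Below, each value is a log2 fold change or a count of calls under the setting named. Factors of the region table, fits without the E12.5 PL libraries, correlations without them and both peak settings were chosen after seeing the data. DESeq2 gave Adgre1 -0.0020 in 1w BM over perinatal BM (0.0066 as reported), 863 genes (198) and 1 member (0) among 1w to 8w BM, 33 regions (1) in E16.5 FL over E12.5 FL and 90 regions (180) in 1w BM over perinatal BM; its size factors in edgeR gave Adgre1 -0.00037 in 1w BM over perinatal BM. Fitting the compared groups alone gave Adgre1 0.0017 in 8w BM over E12.5 FL, 1 gene and 2 regions in E16.5 FL over E12.5 FL, 378 genes (235) in 8w BM over 1w BM, and 615 genes and 1 member among 1w to 8w BM. Cyclic loess gave Adgre1 -0.027 in 1w BM over perinatal BM, Spi1 -0.027 in 8w BM over E12.5 FL, 1577 genes (2710), 1815 regions (7913) and 1 member (2) in perinatal BM over E16.5 FL, and 31572 regions (48926) in E12.5 FL over E12.5 PL. A pseudocount of 2 CPM gave the Csf1r ratio 0.012 in E16.5 FL over E12.5 FL.

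Gene-end regions alone gave Csf1r 0.13 in co-SHI over SHI. They gave Adgre1 -0.22, Csf1r -0.54, Cx3cr1 -0.25 and Irf8 0.13 in 1w BM over perinatal BM, Adgre1 0.51 and Csf1r -0.22 in 8w BM over 1w BM, Adgre1 0.33, Csf1r -0.29 and Spi1 -0.083 in 8w BM over E12.5 FL, Irf8 -0.49 in E12.5 FL over E12.5 PL, Adgre1 0.18 and Irf8 -0.00041 in E16.5 FL over E12.5 FL, and Adgre1 -0.14 and Csf1r 0.11 in perinatal BM over E16.5 FL. Their gene counts were 4878 (8337) in E12.5 FL over E12.5 PL, 3 (42) in 1w BM over perinatal BM, 82 in 8w BM over 1w BM, 487 (1246) in co-SHI over SHI and 90 among 1w to 8w BM. Members called were 1 in perinatal BM over E16.5 FL (Cd68, lower, with the calls of Spi1 and Cx3cr1 lost), 0 in 8w BM over E12.5 FL, 0 in co-SHI over SHI and 1 (3) over the 8 groups. Regions within 10 kb gave Adgre1 -0.40 and Irf8 0.26 in 1w BM over perinatal BM, Adgre1 0.27 in 8w BM over 1w BM, Irf8 -0.37 in E12.5 FL over E12.5 PL, Adgre1 0.16 in E16.5 FL over E12.5 FL, Adgre1 -0.12 in perinatal BM over E16.5 FL and 0 members in co-SHI over SHI.

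The replicate block gave 65 genes in 1w BM over perinatal BM and 318 among 1w to 8w BM; the numbers are not shown to pair libraries. Region-table factors gave Cd68 0.028 and Irf8 0.040 in 1w BM over perinatal BM, Adgre1 0.15 and Irf8 0.092 in 8w BM over E12.5 FL, Irf8 -0.17 in the E12.5 FL over E12.5 PL contrast, and Csf1r 0.13 and Irf8 0.072 in perinatal BM over E16.5 FL, with 4130 genes there, 4 members in 8w BM over E12.5 FL and 5 over the 8 groups. Total counts gave Adgre1 -0.0080 in 1w BM over perinatal BM, and 4773 regions and 1 member in perinatal BM over E16.5 FL. Without the E12.5 PL libraries 2 regions were called in E16.5 FL over E12.5 FL and 274 in 1w BM over perinatal BM. Pairs of region and library with a peak numbered 184 (351) where the peak had to cover 50% of the region, and 318 with a −log10 q of at least 5.

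Leaving out each library gave ranges. Log2 values in 1w BM over perinatal BM ran -0.084 to 0.18 for Adgre1, -0.19 to 0.11 for Cd68, -0.018 to 0.17 for Csf1r, -0.027 to 0.24 for Cx3cr1, -0.13 to 0.047 for Irf8, and, for ratios, -0.063 to 0.32 for Adgre1 and -0.17 to 0.071 for Spi1. In 8w BM over 1w BM they ran -0.19 to 0.092 for Adgre1, -0.038 to 0.13 for Cx3cr1, and, for ratios, -0.24 to 0.035 for Cx3cr1 and -0.034 to 0.21 for Spi1. They ran -0.10 to 0.087 for Adgre1 in 8w BM over E12.5 FL, -0.12 to 0.013 for Spi1 and -0.42 to 0.29 for the Csf1r ratio in E16.5 FL over E12.5 FL, -0.084 to 0.13 for Csf1r and -0.22 to 0.078 for the Irf8 ratio in perinatal BM over E16.5 FL, -0.00085 to 0.25 for Irf8 for the E12.5 FL over E12.5 PL contrast, and -0.067 to 0.022 for Spi1 in co-SHI over SHI.

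Genes called ran 0 to 4 in E16.5 FL over E12.5 FL, 810 (without E16.5 FL 1) to 2734 in perinatal BM over E16.5 FL, 7 (without perinatal BM 1) to 53 in 1w BM over perinatal BM, 71 (without 8w BM 1) to 188 in 8w BM over 1w BM, 3190 (without 8w BM 2) to 4714 in 8w BM over E12.5 FL, 110 to 206 among 1w to 8w BM, and 116 (without SHI 1) to 3063 (without co-SHI 3) in co-SHI over SHI. Regions ran 0 to 22, 2793 to 6945, 19 to 231, 549 to 933, 9638 to 15457 and, in culture, 184 to 3376 in the same order. Members ran 1 to 3 in perinatal BM over E16.5 FL, 0 to 1 in 8w BM over 1w BM, 1 to 2 in 8w BM over E12.5 FL and 0 to 3 in co-SHI over SHI, the 3 without co-SHI 3 being Adgre1 (higher), Cx3cr1 and Cd68 (lower).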
